A study of Caenorhabditis elegans with 43 samples.

Results

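The col- genes of Caenorhabditis elegans encode most of the collagens of the cuticle, the layered extracellular coat of the worm. All genes of the deposited filtered expression table whose name is col- followed by a number were taken, which gave 116 of 13837 genes. A larger unfiltered table of 46739 genes holds 159 such genes, and the other 43 lie below the filter of the authors and entered no test. The study asked how activation or loss of ATFS-1, the transcription factor of the mitochondrial unfolded protein response, bears on stress resistance and lifespan, with nuo-6 worms as a long-lived model of mild mitochondrial impairment. RNA was sequenced from 43 libraries of 8 genotypes, all of them whole prefertile young adults grown at 20 °C on OP50 bacteria with no drug or other treatment.

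Wild type was the N2 strain, with 3 libraries in sequencing batch 1, 6 in batch 2 and 3 in batch 3. Batch 1 also held 5 libraries of atfs-1(et15), 6 of atfs-1(et17), 3 of atfs-1(gk3094), 3 of hif-1(ia4) and 2 of nuo-6(qm200);hif-1(ia4). Batch 2 held 6 libraries of nuo-6(qm200), and batch 3 held 3 of nuo-6(qm200);atfs-1(gk3094) and 3 of atfs-1(gk3094). The et15 and et17 alleles are point mutations in the mitochondrial targeting sequence of ATFS-1 that activate it constitutively, gk3094 is an atfs-1 deletion, qm200 is a point mutation in a subunit of complex I of the respiratory chain, and ia4 is a deletion in hif-1, the hypoxia-inducible factor. Each genotype is 1 worm strain, each library pools many worms, and all tissues are mixed, so fewer cells of a type and less RNA per cell cannot be told apart. The labels of the deletion libraries give no allele, and those of the nuo-6;atfs-1 libraries hold a code in place of a genotype, so both were read with the help of the strain list of the study.

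The cuticle is secreted by the epidermis and is made anew at each molt, when its collagens are transcribed in successive waves. Collagen chains are hydroxylated and folded in the endoplasmic reticulum, trimmed by proteases and cross-linked outside the cell, and each larval stage and the adult have their own set of chains. Loss of single collagens can change body shape, and cuticle collagens are among the genes that respond to insulin, BMP and stress pathways. Because the genes are small, numerous and alike, reads shared by similar copies could have been lost or misassigned in the counting. The values of col-42, col-98 and col-103, taken here as similar copies, are therefore uncertain. Their sequences were not compared here. Of the 116 genes, 48 overlap another annotated gene and 40 overlap a protein-coding one.

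Between 21466920 and 48493377 reads were counted on genes per library, with a median of 35067190. Values are the normalized CPM of the authors, that is, each read count scaled by library depth and multiplied by 1 constant for each library. The transcript of atfs-1 stood at 24.7 to 26.5 and 24.5 to 30.3 normalized CPM in the deletion strain in batches 1 and 3 and at 25.6 to 29.2 in nuo-6;atfs-1, against 55.3 to 89.8 over the 12 wild-type libraries, and that of hif-1 was at 18.4 to 32.3 in hif-1 and 34.96 to 43.4 in nuo-6;hif-1 worms against 191.5 to 220.3 in wild type of batch 1. The level of nuo-6 does not check a point mutation. One set of libraries went against its batch label: atfs-1(gk3094) replicates 1, 2 and 3 of batch 1 each had a near-copy in atfs-1(gk3094) replicate b, bl or r of batch 3. The standard deviation of the log2 difference over 10394 genes was 0.117, 0.108 and 0.108 for these pairs, the 3 smallest of all 903 pairs of libraries, beside a median of 0.728. Body wall muscle genes summed to 4222 to 7832 normalized CPM in those batch 1 libraries, near the 3653 to 6172 of wild type of batch 3 and below the 12506 to 14339 of wild type of batch 1. The deletion is therefore given against wild type of batch 3 first, and its batch 1 values with that caveat.

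In wild-type worms the levels of the family differed widely. Over the 12 wild-type libraries the mean level ran from 0.385 to 2667 normalized CPM with a median of 103, 19 collagens lay under 10 and 13 over 1000, and those 13 held 51.8% of the summed collagen signal. The 5 with the highest level were col-124 (2667 normalized CPM, 2388 per kilobase of exon), col-140 (2124 and 2279), col-20 (1847 and 1858), col-122 (1820 and 1902) and col-181 (1679 and 1504), and together they held 24.4%. The genes lie on every chromosome, 12 on I, 15 on II, 12 on III, 30 on IV, 27 on V and 20 on X. All are annotated as protein-coding except col-182, a pseudogene.

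In nuo-6 worms the family split. Compared to wild-type worms of batch 2, 32 of the 116 collagens were higher and 40 were lower at a Benjamini-Hochberg adjusted p under 0.05 from limma, fitted on log2(normalized CPM + 0.5) of all genes and all libraries, where 22.4% of all tested genes were called higher and 18% lower. The median log2 fold change was 1.43 over the 32 and fell by 1.17 over the 40, and over all 116 it was -0.50, beside -0.03 over all tested genes. Of the 15 collagens over 1000 normalized CPM in wild type of batch 2, 12 were higher, 2 (col-71 and col-73) were lower and col-81 was not called. The collagens that rose also included 5 under 10 normalized CPM, beside 3 of those that fell. The median level of the risers in wild type of batch 2 was 407.7 normalized CPM per kilobase, against 206.9 for those that fell and 68.5 for the 44 that were not called.

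**Figure D1:**
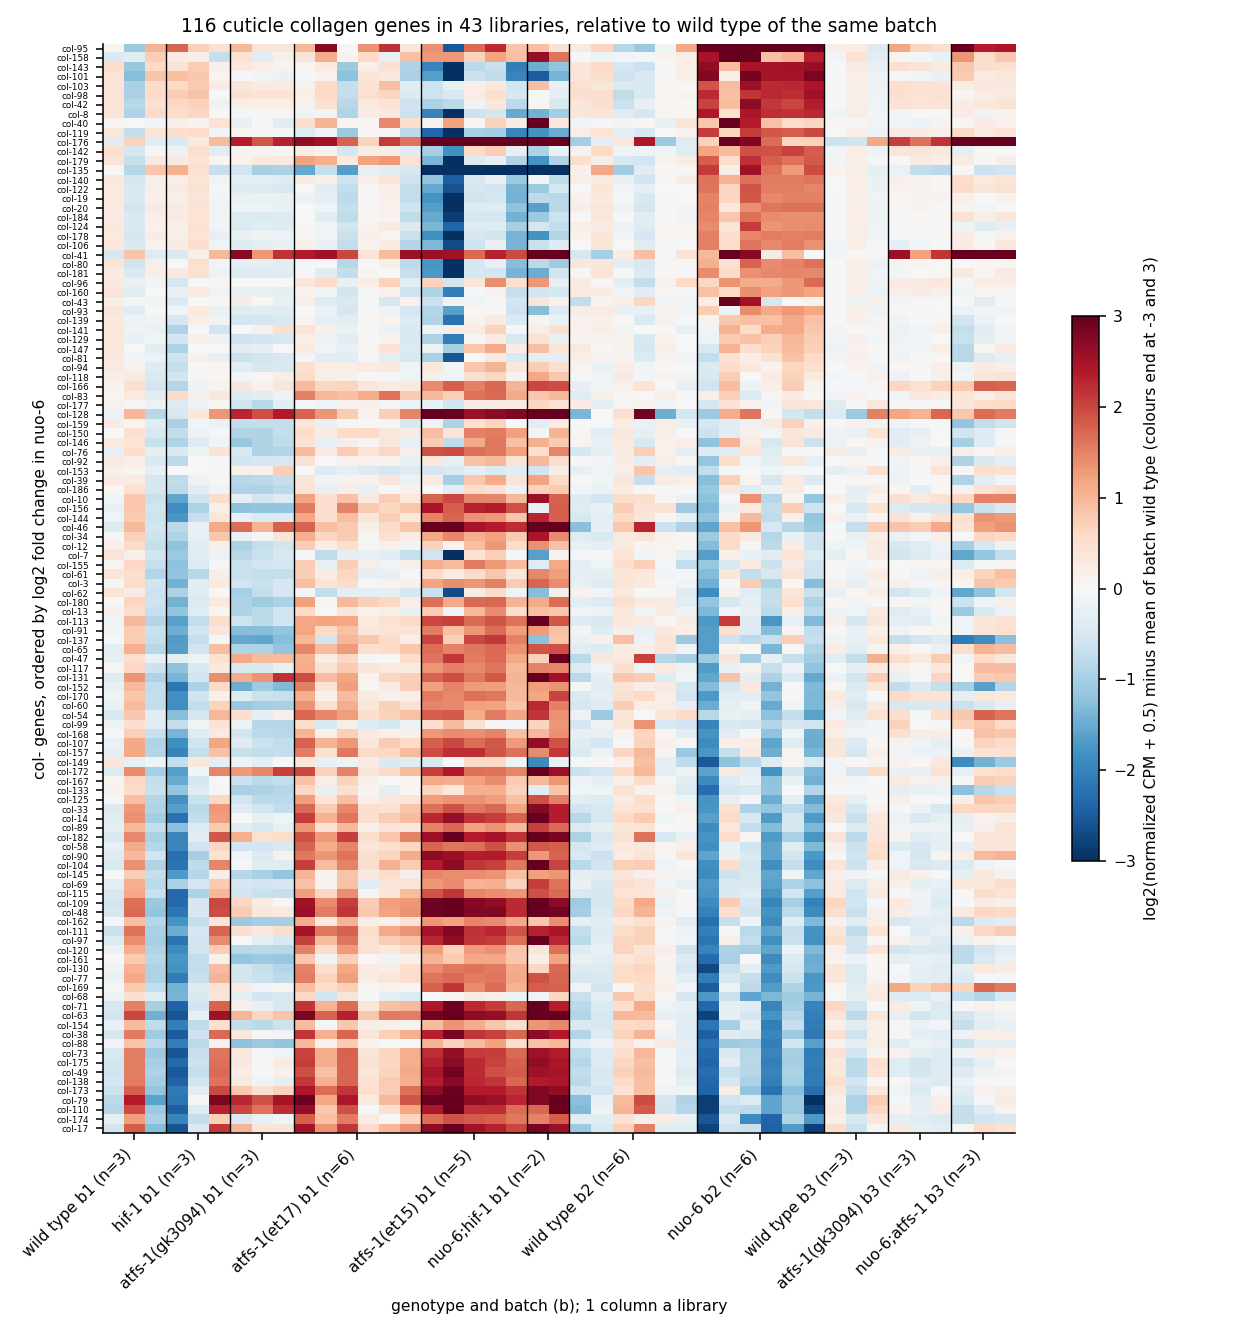
Each row is 1 of the 116 cuticle collagens, ordered by its log2 fold change in nuo-6 worms, and each column is 1 of the 43 libraries; color gives log2(normalized CPM + 0.5) minus the mean of wild type of the same batch, and black lines separate groups. In the nuo-6 columns the 32 collagens called higher are red and the 40 called lower are blue, and in the atfs-1(et15) and nuo-6;hif-1 columns most of the colors are the other way round.

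Summed over the family, the gain was larger than the loss. The 32 that rose summed to 22911 ± 3848 normalized CPM in wild type of batch 2 (SD, n = 6) and to 61887 ± 13799 in nuo-6 worms (SD, n = 6), where the lowest library, replicate 2, was at 35404, still above the 28026 of the highest wild-type library. The 40 that fell summed to 12502 ± 4856 and 5629 ± 2762 (SD, n = 6 each), and these ranges overlapped, with 8689 in the highest nuo-6 library and 7896 in the lowest wild-type one. All 116 together took 4.37% ± 0.23 of the counted reads in wild type of batch 2 and 7.1% ± 0.67 in nuo-6 worms (SD, n = 6 each), with 5.99% in the lowest nuo-6 library and 4.67% in the highest wild-type one. Within the collagen sum the share of the 32 went from 53.6% to 83.5% and that of the 40 from 29.2% to 7.59%. These sums are descriptions, since the sets were called on the same libraries.

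Of the collagens that rose, col-95 had the largest fold change. Its level was 10.9 normalized CPM in the lowest wild-type library of batch 2, 25.97 in the median and 55.1 in the highest, and 230.8, 289.8 and 664.2 in nuo-6 worms (log2 fold change 3.74 ± 0.53 SE, adjusted p = 5.1e-07, limma). Every nuo-6 library was above every wild-type library of every batch. The gene, WBGene00000670, lies on chromosome III from 11703994 to 11705091 (WBcel235, plus strand), and its neighbour col-96 on the minus strand, from 11705652 to 11706765, was also higher (1.20 on the log2 scale), from a median of 39.8 in wild type to 86.9 in nuo-6. col-158, which is nearly silent in wild-type worms at 0.35, 0.423 and 0.608 normalized CPM (lowest, median and highest), reached 1.29, 4.56 and 14.8 in nuo-6 worms (2.38 ± 0.34 SE, adjusted p = 7.4e-07), again with no overlap. col-143, an abundant collagen, went from 215, 354 and 506 to 640, 1899 and 2123 (2.28 ± 0.52 SE, adjusted p = 6.6e-04), and the library at 640 was replicate 2.

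The collagens with the highest levels rose by similar amounts. col-124 went from 1903, 2578 and 2930 normalized CPM in the lowest, median and highest wild-type library of batch 2 to 3287, 6532 and 10550 in nuo-6 worms (1.35 ± 0.23 SE, adjusted p = 1.8e-05, limma). The log2 fold change was 1.51 for col-140, 1.45 for col-122, 1.36 for col-20 and 1.28 for col-181. Replicate 2 was the lowest nuo-6 library for all 5, and for col-20, at 1926, it lay inside the wild-type range of 1073 to 1961. In the other 4 no nuo-6 library overlapped wild type of the batch. Without replicate 2, 30 of the 32 calls and all 40 lower calls were kept, and 50 collagens were called lower in all. Without replicate 1, 24 were called lower.

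Among those that fell with no overlap between the groups, col-174 changed most, from 12.03, 15.4 and 21.5 normalized CPM in the lowest, median and highest wild-type library of batch 2 to 2.19, 4.05 and 11.2 in nuo-6 worms (-1.66 ± 0.36 SE, adjusted p = 3.2e-04, limma). col-88 followed, from 268, 327 and 446 to 71.8, 131.7 and 225 (-1.43 ± 0.27 SE, adjusted p = 6.1e-05). col-68 went from 5.93, 9.03 and 17.2 to 2.59, 3.42 and 5.90 (-1.29 ± 0.25 SE, adjusted p = 6.7e-05). The other falls were larger within some libraries but less even: col-17, with the lowest fold change of all 116 (-1.83 ± 0.53 SE, adjusted p = 0.0061), ranged from 145.4 to 885.5 in wild type and from 44.4 to 202.5 in nuo-6 worms, so its groups overlapped.

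Both sets were also placed among the wild-type worms of all batches. The mean of the nuo-6 libraries was above all 12 wild-type libraries for 28 of the 32 collagens that rose, and for 5 of them every nuo-6 library was. For the 40 that fell, the nuo-6 mean lay within the range of the 12 wild-type libraries in 39 and below it in 1. For 5 of the 40 all nuo-6 libraries were below all wild-type libraries of batch 2, compared with 22 of the 32 in the other direction. Both sets were called on these same libraries, so separation is favored, and the share of all genes without overlap is not given here. The wild-type groups themselves differed: between wild type of batch 3 and of batch 2, 55 collagens were lower and 1, col-135, was higher, with 20.4% and 24.7% of all tested genes, and without wild-type replicate bl the total was 28 instead of 56. The 40 that fell in nuo-6 worms summed to 4327 ± 1116 normalized CPM in wild type of batch 3 and 6361 ± 4474 in wild type of batch 1 (SD, n = 3 each).

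**Figure D2:**
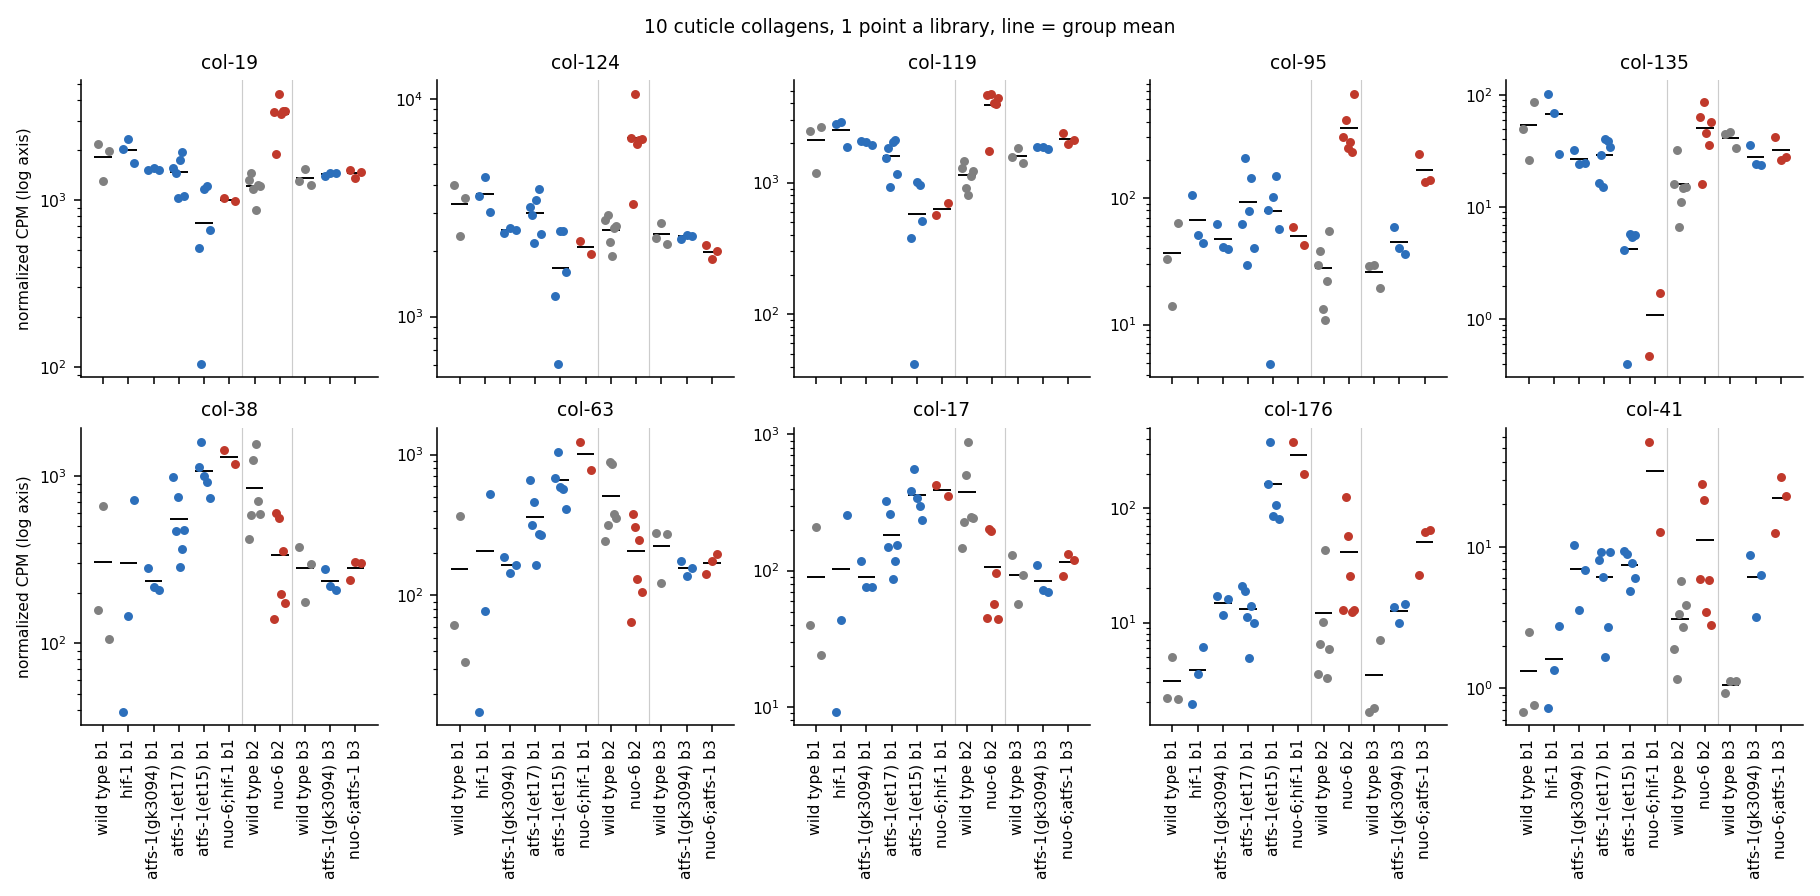
Normalized CPM of 10 cuticle collagens (log axes), 1 point a library and 1 column a genotype in its batch, with the group mean as a line and vertical lines between batches 1, 2 and 3. In the nuo-6 column col-19, col-124, col-119 and col-95 stand above wild type of batch 2, col-38, col-63 and col-17 stand low with overlap, and in the atfs-1(et15) column col-135 is at 0.403 to 5.74 while col-176 is at 80.5 to 382.9.

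Collagens with a known role were found on both sides. col-19, the adult-specific collagen, was at 880, 1225 and 1464 normalized CPM in the lowest, median and highest wild-type library of batch 2 and at 1888, 3394 and 4344 in nuo-6 worms (1.41 ± 0.32 SE, adjusted p = 5.0e-04, limma), without overlap. col-7, also transcribed in adults, did not pass the test (25.1 and 21.5 in the medians, -0.33 ± 0.38 SE, adjusted p = 0.51). The 3 collagens of the last larval stage, L4, all fell in nuo-6: col-38 by 1.41, col-49 by 1.48 and col-63 by 1.37 on the log2 scale (adjusted p = 0.015, 0.0075 and 0.042), with overlapping groups. col-38 ranged from 419 to 1558 in wild type and from 139.3 to 597 in nuo-6 worms.

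Of the collagens tied to the lifespan of other long-lived worms, col-120 fell in nuo-6 worms (medians 222 and 99.5 normalized CPM, -1.18 ± 0.33 SE, adjusted p = 0.0046, limma). The other 3 did not pass the test, at -0.30 ± 0.33 SE for col-10, -0.52 ± 0.23 for col-13 and -0.30 ± 0.30 for col-144 on the log2 scale. col-40, a collagen of the dauer larva, was called higher (1.77 ± 0.54 SE, adjusted p = 0.0081), at 1.47, 45.9, 5.23, 1.55, 1.12 and 1.24 normalized CPM in replicates 1 to 6 beside 0.455 to 0.95 in wild type. Most of that rise was replicate 2, and without it the change was 1.05 (adjusted p = 0.036). col-2, another dauer collagen, is below the filter. col-41, which is regulated by BMP signaling, was at 5.97, 27.7, 21.4, 3.45, 5.85 and 2.82 in nuo-6 replicates 1 to 6 and at 1.17 to 5.71 in wild type, with overlap (1.33 ± 0.46 SE, adjusted p = 0.019), and its call was lost without nuo-6 replicate 2 (0.98, adjusted p = 0.078).

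Neighbouring collagens did not always share a direction. None of the 12 collagens on chromosome I rose in nuo-6 worms and 5 fell, while on V 9 rose and 5 fell, and on II 3 rose and 8 fell. Within 10000 bases of each other there were 23 neighbouring pairs from 39 genes, and both members rose in 4 pairs, both fell in 3, and they moved in opposite directions in 2. These 2 pairs are 1 run on chromosome II on the minus strand: col-17 (4866436 to 4867576) fell by 1.83, col-20 (4869670 to 4870791) rose by 1.36, and col-73 (4872098 to 4873129) fell by 1.45 on the log2 scale. In runs with 1 direction, col-141, col-142 and col-143 on V, all on the plus strand, rose by 0.76, 1.64 and 2.28, and on X the call was lower for col-167, col-168, col-169 and col-170. These counts are descriptions, and reads of neighbours that are alike could have been lost or misassigned.

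When atfs-1 was deleted in the nuo-6 background, few collagens differed from wild type. Compared to wild-type worms of batch 3, nuo-6;atfs-1 worms had 6 collagens higher and 3 lower, where 11.1% of all tested genes were called higher and 6.03% lower. Of the 32 collagens that rose in nuo-6, 3 were higher in nuo-6;atfs-1 and 29 were not called, with a median log2 fold change of 0.15, and of the 40 that fell, 2 were higher, 1 was lower and 37 were not called, with a median of 0.05. The nuo-6 and nuo-6;atfs-1 comparisons use different wild-type libraries. Fitted on only these groups of libraries, the test called 27 collagens in place of 9. Leaving out nuo-6;atfs-1 replicate bl gave 5, and with a stage index in the fit, built from yolk, oocyte, sperm and molting genes, 23 were called. The lower calls, 3 in all, came to 1 without that library or wild-type replicate r and to 0 without nuo-6;atfs-1 replicate b.

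The 6 collagens that rose in nuo-6;atfs-1 stood at 1.055 to 58.9 normalized CPM in wild type of batch 3, and the 3 that fell at 29.4 to 693. col-176 was at 1.66, 1.80 and 7.03 normalized CPM in wild-type libraries b, bl and r and at 25.8, 62.4 and 64.8 in those of nuo-6;atfs-1 (3.83 ± 0.74 SE, adjusted p = 3.0e-04, limma), and col-41 at 0.927, 1.12 and 1.12 and at 12.5, 31.1 and 22.8 (3.77 ± 0.65 SE, adjusted p = 6.4e-05). col-95, the top riser of nuo-6, was at 28.9, 29.7 and 19.3 in wild type and at 223, 132.6 and 139.7 in nuo-6;atfs-1 (2.63 ± 0.74 SE, adjusted p = 0.012). None of these 3 overlapped. The 3 that fell were col-137 (26.7, 25.2 and 36.5 to 6.36, 7.57 and 11.8; -1.75 ± 0.51 SE, adjusted p = 0.014), col-149 (-1.47, adjusted p = 0.014) and col-159 (-0.84, adjusted p = 0.037). The adult collagen col-19 was at 1509, 1352 and 1483 in nuo-6;atfs-1 and at 1312, 1535 and 1240 in wild type (0.09 ± 0.45 SE, adjusted p = 0.91).

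Batch 3 has no library of nuo-6 alone, so the double mutant was set against nuo-6 through the wild type of each batch. By that test 9 collagens were higher in nuo-6;atfs-1 and 6 were lower, where 3.98% and 5.58% of all tested genes were called higher and lower. The 6 lower ones were col-42, col-98, col-103, col-124, col-141 and col-142, all of which rose in nuo-6, and col-42, col-98 and col-103 count among them with the uncertainty of similar copies. For col-124 the difference was -1.60 ± 0.40 SE (adjusted p = 0.0087, limma), from levels of 2129, 1836 and 2002 normalized CPM in nuo-6;atfs-1 beside 2294, 2704 and 2157 in wild type of batch 3. For col-19, at -1.32 ± 0.55 SE, the test was not passed (adjusted p = 0.12). Over the 32 risers the median difference was -1.25 and 30 were negative, and over the 40 fallers it was 1.31, with 7 called higher, the largest col-169 at 2.61 (adjusted p = 7.6e-04). Both sets were called on the nuo-6 and wild-type libraries of batch 2 that also enter this difference. Opposite signs were thus favored in advance, also for the 6 lower ones, and are no separate evidence of a reversal. The 9 higher calls rested on single libraries: 2 to 4 were left without any 1 of 11 libraries (wild-type replicates 6, 7, 8, b, bl and r, nuo-6 replicates 1, 4 and 6, and nuo-6;atfs-1 replicates bl and r), and 14 were made without nuo-6 replicate 2 or 3. With the stage index 7 were called in all. Leaving out nuo-6 replicate 2 gave 28 called collagens in place of 15, leaving out wild-type replicate bl gave 7, and leaving out another single library gave 8 or 9 in 6 further cases, namely wild-type replicates 6, 7 and b, nuo-6 replicate 1 and nuo-6;atfs-1 replicates bl and r. Batch and genotype cannot be told apart in this comparison.

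**Figure D3:**
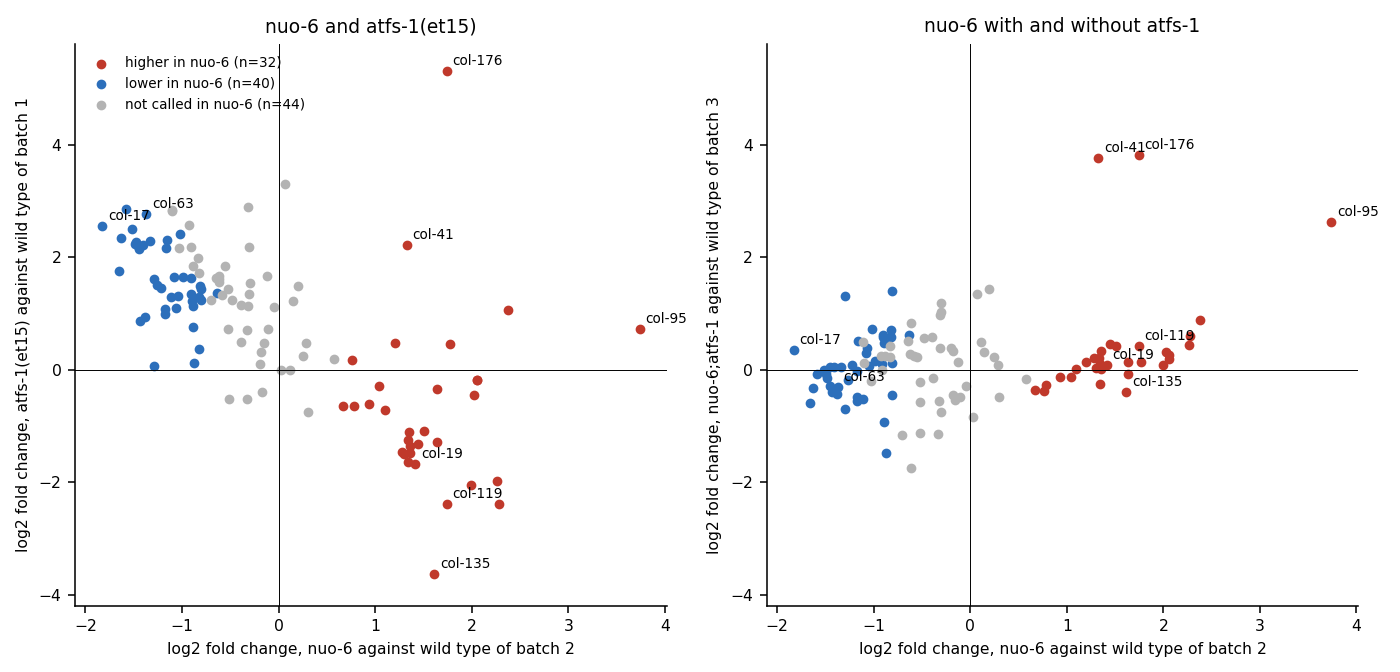
Each point is 1 of the 116 cuticle collagens, with its log2 fold change in nuo-6 worms against wild type of batch 2 on the x axis and that in atfs-1(et15) against wild type of batch 1 (left) or nuo-6;atfs-1 against wild type of batch 3 (right) on the y axis, colored by its call in nuo-6. The 40 collagens called lower in nuo-6 all lie above 0 on the left, as do 39 of the 44 not called. On the right most points of either color lie near 0, with col-41, col-95 and col-176 far above it.

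The atfs-1 deletion alone changed no collagen detectably within its batch. Compared to wild-type worms of batch 3, atfs-1(gk3094) had 0 collagens higher and 0 lower by limma, and 4, all higher, at an unadjusted p under 0.05, where 0.152% of all tested genes were called higher and 0.0361% lower. edgeR on recovered reads called 0, and the additive fit and the fit of only these groups called 3 each. Against wild type of batch 1 the same strain had 5 collagens higher and 12 lower (18% and 13.8% of all tested genes), but the count went from 3 to 27 on leaving out 1 library: 5 or 7 without wild-type replicate 1 or 2, 27 without wild-type replicate 3, and 6, 3 and 5 without deletion replicates 1, 2 and 3. With the stage index it was 59. Those libraries are the near-copies of batch 3 libraries, and in this comparison all 7 body wall muscle genes were lower too. The difference between the effect in batch 1 and in batch 3 was called for 0 of 116 collagens and for 1.19% of all genes. Because the deletion libraries of both batches are near-copies, that difference mostly sets the wild types of the batches against each other. It cannot show whether the deletion acts alike in both batches. The largest batch 1 changes without overlap were rises of col-128 (2.20), col-176 (2.17) and col-41 (2.06) and falls of col-137 (1.45), col-152 (1.28) and col-91 (1.23) on the log2 scale. For col-176 the levels were 16.9, 11.7 and 16.2 normalized CPM in batch 1 and 13.5, 9.99 and 14.6 in batch 3, and 1.66, 1.80 and 7.03 in wild type of batch 3 (1.96 ± 0.74 SE, adjusted p = 1.0). Between nuo-6;atfs-1 and atfs-1(gk3094), both of batch 3, 0 collagens were higher and 1, col-149, was lower, where 8.07% and 6.22% of all tested genes were called. col-149 stood at 42.1, 58.3 and 73.4 in nuo-6;atfs-1 and at 173.6, 163.8 and 195.7 in the deletion. A fit of only those groups called 34, edgeR on recovered reads called 2, and without nuo-6;atfs-1 replicate b the count was 3.

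In atfs-1(et15), 1 of the 2 strains with activated ATFS-1, most called collagens differed from wild type in the direction opposite to that in nuo-6 worms. Compared to wild-type worms of batch 1, 65 collagens were higher and 17 lower in atfs-1(et15), where 16.9% and 16.4% of all tested genes were called, and the median log2 fold change over the 116 was 1.15. The comparison shares no library with that of nuo-6. Of the 40 collagens that fell in nuo-6, 35 were higher in atfs-1(et15), which is 87.5% of those 40 and 53.8% of the 65, and none was lower. Of the 32 that rose in nuo-6, 17 were lower in atfs-1(et15), which is 53.1% of the 32 and 100% of the 17. Of the 44 not called in nuo-6, 28 were higher and 0 lower, so a rise was not particular to the fallers. The matching shares over all genes are not given here. Only col-41 and col-176 were called in the same direction, both higher, among the 54 collagens called in both. Without wild-type replicate 3, 25 higher and 37 in all were called. In the same libraries all 6 yolk genes were lower and 13 of 15 molting genes higher, and with the stage index in the fit 8 collagens were called in place of 82 and 11 of those named with values changed sign. Over all genes that fit called 1224 higher and 731 lower, in place of 2337 and 2265.

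Of the collagens that rose in atfs-1(et15), col-176 rose most, from 2.17, 5.01 and 2.14 normalized CPM in wild-type replicates 1, 2 and 3 to 161.1, 382.9, 86.0, 106 and 80.5 in replicates 2 to 6 (5.33 ± 0.66 SE, adjusted p = 1.1e-07, limma). All 5 libraries lay above all 12 wild-type libraries. col-128 (0.386, 1.497 and 0.0611 to 12.6, 25.2, 5.46, 6.02 and 6.44; 3.30 ± 0.69 SE) and col-46 (2.89 ± 0.61 SE) were next, and col-46 overlaps col-47 on the other strand. On its own strand col-46 also overlaps the noncoding gene Y18H1A.17. The L4 collagens col-38, col-49 and col-63 were higher by 2.22, 2.27 and 2.77. col-63 was at 61.5, 368 and 33.7 in wild type and at 685, 1036, 591, 572 and 408 in atfs-1(et15), without overlap, and wild-type replicate 2 was the highest of its group for col-63, col-38 and col-17 alike. col-10, col-120 and col-144 were higher by 1.54, 1.08 and 1.35.

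The 17 collagens that fell in atfs-1(et15) ranged from col-135, at a mean of 53.95 normalized CPM in wild type of batch 1, to col-124, at 3300. col-135 went from 49.4, 26.2 and 86.2 normalized CPM to 4.18, 0.403, 5.74, 5.40 and 5.60 (-3.63 ± 0.52 SE, adjusted p = 1.8e-06, limma). col-119 went from 2471, 1185 and 2645 to 377, 42.0, 1008, 964 and 508 (-2.38 ± 0.52 SE, adjusted p = 7.5e-04). col-19 went from 2174, 1301 and 1964 to 514.5, 104.6, 1170, 1223 and 663 (-1.68 ± 0.40 SE, adjusted p = 0.0016). In all 3 the groups did not overlap, and replicate 3 was the lowest library. In nuo-6 worms the same genes were higher by 1.61, 1.74 and 1.41. Without that replicate 15 collagens were called lower in place of 17, and without wild-type replicate 1, 11 were.

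In atfs-1(et17), which carries the other activating allele, 1 collagen was called. Compared to wild-type worms of batch 1, col-83 was higher, at 2.09, 1.30, 1.19, 1.47, 2.30 and 1.07 normalized CPM in replicates 1 to 6 against 0.446, 0.599 and 0.214 (1.16 ± 0.21 SE, adjusted p = 2.5e-04, limma), and none was lower, where 2.85% and 1.24% of all tested genes were called. col-83 had the lowest wild-type mean of the 116, at 0.385, and overlaps the protein-coding gene F33A8.4 on the same strand. Whether its reads came from that gene was not tested. At an unadjusted p under 0.05 there were 32 collagens, all higher, and the median over the 116 was 0.47. Without wild-type replicate 2, 20 were called, all higher, and without atfs-1(et17) replicate 4 or 5, 2 were. Set directly against atfs-1(et17), atfs-1(et15) had 19 collagens higher and 16 lower, with 6.29% and 5.13% of all tested genes called. The largest differences were col-176 (3.44 on the log2 scale), col-128 (2.27) and col-46 (2.05) upwards and col-135 (-2.81), col-143 (-2.22) and col-179 (-2.21) downwards. Without atfs-1(et15) replicate 3 the total was 16 in place of 35, and without atfs-1(et15) replicate 2 or atfs-1(et17) replicate 2, 4 or 5 it was 22 or 23. The higher calls went from 19 to between 7 and 10 without any 1 of atfs-1(et15) replicates 2 to 5 or atfs-1(et17) replicates 2, 4, 5 and 6. The fit of only these groups gave 40 higher and 2 lower, and the stage index left 3 calls.

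In nuo-6;hif-1 worms most of the called collagens were higher. Compared to wild-type worms of batch 1, 67 collagens were higher and 9 lower in the 2 libraries of nuo-6;hif-1, where 29.8% and 26.2% of all tested genes were called. Since it shares its wild-type libraries with atfs-1(et15), the values are given side by side with no overlap count. Against nuo-6, which uses other libraries, 32 of its 40 fallers were higher and 0 lower, and of its 32 risers 4 were higher and 9 lower. Of the 44 not called in nuo-6, 31 were higher and 0 lower. col-176 was at 379.9 and 199.4 normalized CPM in nuo-6;hif-1 and at 2.14 to 5.01 in wild type (6.35 ± 0.83 SE, adjusted p = 3.1e-07, limma), and col-41 at 55.8 and 12.8 against 0.684 to 2.504 (4.05 ± 0.72 SE, adjusted p = 3.7e-05). col-135 was at 0.475 and 1.74 against 26.2 to 86.2 (-5.04 ± 0.65 SE, adjusted p = 2.7e-07). col-101 and col-119 were lower by 1.94 and 1.65, and the change of col-19 did not pass the test (1027 and 989 against 1301 to 2174, -0.81 ± 0.50 SE, adjusted p = 0.16). Leaving out wild-type replicate 3 gave 48 called collagens in place of 76, and leaving out wild-type replicate 1 or 3 or nuo-6;hif-1 replicate 2 gave 1 called lower. In the same 2 libraries all 6 yolk genes, all 15 oocyte genes and 25 of 28 sperm genes were lower and 12 of 15 molting genes higher, and with the stage index in the fit 10 collagens were called in place of 76. Over all genes that fit called 1035 higher and 862 lower, in place of 4123 and 3628.

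In hif-1 worms 0 collagens were higher and 0 lower by limma compared to wild-type worms of batch 1, where 0.369% and 0.152% of all tested genes were called, while 2, both lower, passed at an unadjusted p under 0.05 and edgeR on recovered reads called 0. The spread was wide: col-63 was at 14.9, 76.9 and 528 normalized CPM in the 3 hif-1 libraries, and replicate 3 held the highest value also for col-17 (9.22, 43.2 and 255) and col-38 (39.0, 145.3 and 722). Over the 8 comparisons with wild type, 62 collagens were called higher in at least 1 and lower in another, 41 were only ever higher and 5 only ever lower, and 8 were called in none, among them col-81, col-7 and col-39. The strains of batch 1 share their wild-type libraries, so the comparisons behind these counts are not independent. The matching counts over all genes are not given here. Whether opposite calls were more common among collagens than among other genes was therefore not tested. By the range of their log2 fold changes the widest of the 62 were col-135, col-63, col-79, col-143 and col-17.

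**Figure D4:**
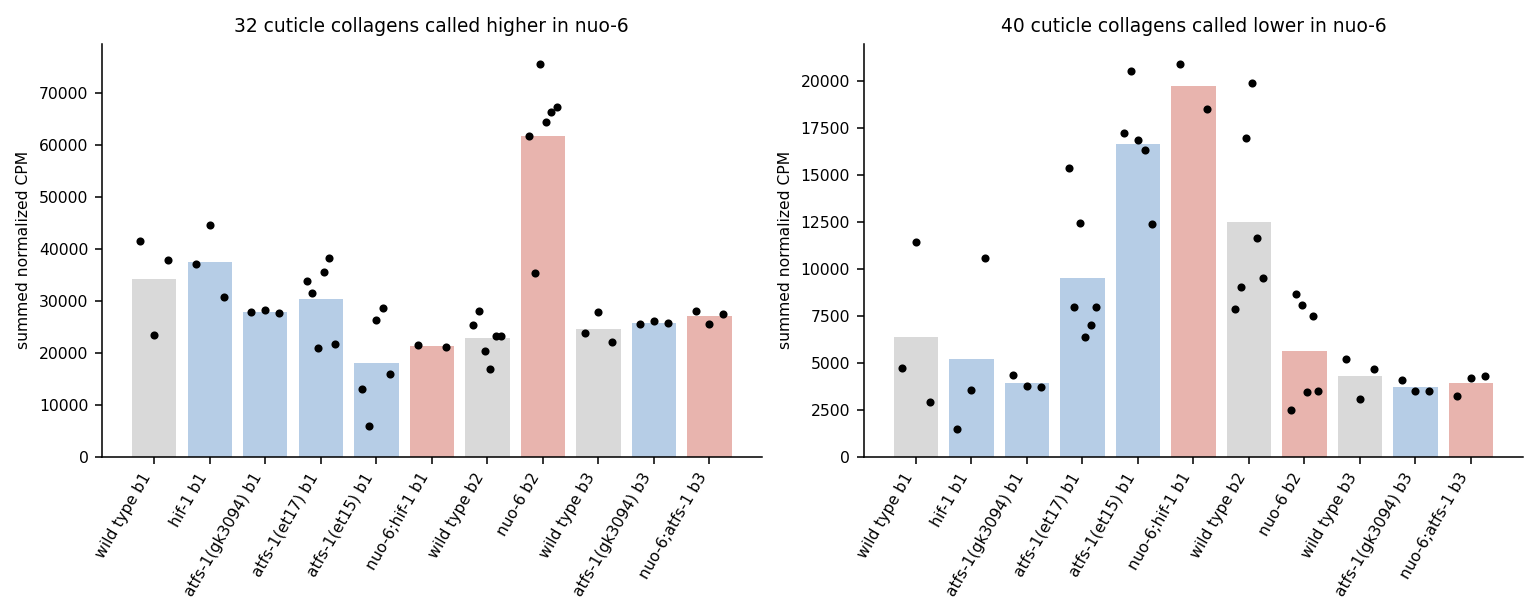
Summed normalized CPM, 1 point a library with the group mean as a bar, of the 32 collagens called higher in nuo-6 (one panel) and of the 40 called lower (the other), by genotype and batch (b). The nuo-6 libraries lie at 35404 to 75768 in the first panel, and in the second atfs-1(et15) lies at 12389 to 20548 and nuo-6;hif-1 at 18526 to 20947 beside 2949 to 11426 in wild type of batch 1.

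Of 19 collagens named for a body-shape phenotype (dpy, rol, sqt, lon-3, bli-1 and bli-2), 18 were measured. In nuo-6 worms 0 were higher and 6 lower, among them lon-3 (-1.94), sqt-3 (-1.68) and rol-6 (-1.46), and the list median was -1.15 beside -0.03 over all genes. In atfs-1(et15) all 18 were higher, from 0.87 for dpy-17 to 4.20 for dpy-3, with a median of 3.28 beside -0.04. Of 12 measured cuticlins and other matrix proteins, 2 were lower in nuo-6 (cut-2 by 2.11 and cut-4 by 0.90), 10 were higher in atfs-1(et15), and 4 were higher in nuo-6;atfs-1. Of the 12 genes of collagen processing, 2 were higher and 4 lower in nuo-6, and 5 higher and 1 lower in atfs-1(et15). Of all tested genes 22.4% were called higher and 18% lower in nuo-6, 16.9% and 16.4% in atfs-1(et15), and 11.1% and 6.03% in nuo-6;atfs-1. The 2 processing genes higher and the 2 matrix genes lower in nuo-6 were not above those shares. dpy-18 and phy-2, which hydroxylate collagen prolines, fell by 1.00 and 0.66 in nuo-6 and rose by 1.91 and 1.34 in atfs-1(et15), while phy-3, a prolyl hydroxylase of the spermatheca, went the other way (0.55 and -0.69).

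Genes that mark the stage of the worm moved with the collagens in some strains. In atfs-1(et15) all 6 yolk genes were lower, and the yolk sum was 1674 to 14384 normalized CPM against 27022 to 76683 in wild type of batch 1. Of the oocyte genes 9 of 15 and of the sperm genes 19 of 28 were lower, and 13 of 15 molting genes were higher, with sums of 1078 to 3541 against 237 to 879. In nuo-6;hif-1 the yolk sums were 2005 and 8198 and the molting sums 2124 and 2503. In nuo-6;atfs-1 the molting sums were 769 to 1093 against 343 to 737 in wild type of batch 3, with 1 gene called higher. Its yolk sums were 13704 to 53072 against 22613 to 43578, with 1 gene called lower. Set against nuo-6 through wild type, molting genes had a median log2 fold change of 2.255, with 2 called higher. For yolk genes it was -1.19 with 0 called. With the stage index in the fit, 904 genes were higher and 849 lower over all genes in this comparison, in place of 551 and 772. The part of stage in it was not otherwise tested. In nuo-6 worms 0 yolk genes were called, 1 of 15 oocyte genes was higher, 4 of 28 sperm genes were higher and 2 lower, and 8 of 15 molting genes were lower, with sums of 257 to 1047 against 592 to 3590 in wild type of batch 2. The yolk sums of nuo-6 replicates 1 to 6 were 65236, 8630, 92192, 59037, 55675 and 59797 normalized CPM, beside 22819 to 43662 in wild type of batch 2, so that 5 libraries were above every wild-type library of the batch and replicate 2 was below every one. Without replicate 2, 2 of 6 yolk genes were called higher and none lower, and 9 of 15 molting genes were lower. Replicate 2 also had the lowest sum of the 32 risers among the nuo-6 libraries. The shares of all tested genes called in the main fit are given above with each strain. No measured gene of these lists was at 0 in any library. The labels give 1 stage, prefertile young adult, for all libraries.

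When the stage index, built from these 4 lists in wild-type worms (64 genes), was added to the fit, the strains parted. In nuo-6, 33 collagens were higher and 38 lower, and 32 of the 32 and 38 of the 40 original calls were kept. In atfs-1(et15), 6 were higher and 2 lower: col-176 (2.73), col-95 (2.91), col-83, col-98, col-76 and col-150, and col-135 (-1.61) and col-153. In nuo-6;hif-1 8 were higher and 2 lower, with col-95 at 3.83, col-176 at 2.61 and col-135 at -2.14. In atfs-1(et17), col-95 (2.02) and col-179 (1.46) joined col-83 among the higher. Calls over all genes parted too. In nuo-6 they went from 3094 higher and 2484 lower to 3560 and 3608. In atfs-1(et15) they went from 2337 and 2265 to 1224 and 731, and in nuo-6;hif-1 from 4123 and 3628 to 1035 and 862. The index takes collagen changes that run with stage genes into its own term, whichever of them came from genotype, and what part stage has in the changes was not otherwise tested.

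**Figure D5:**
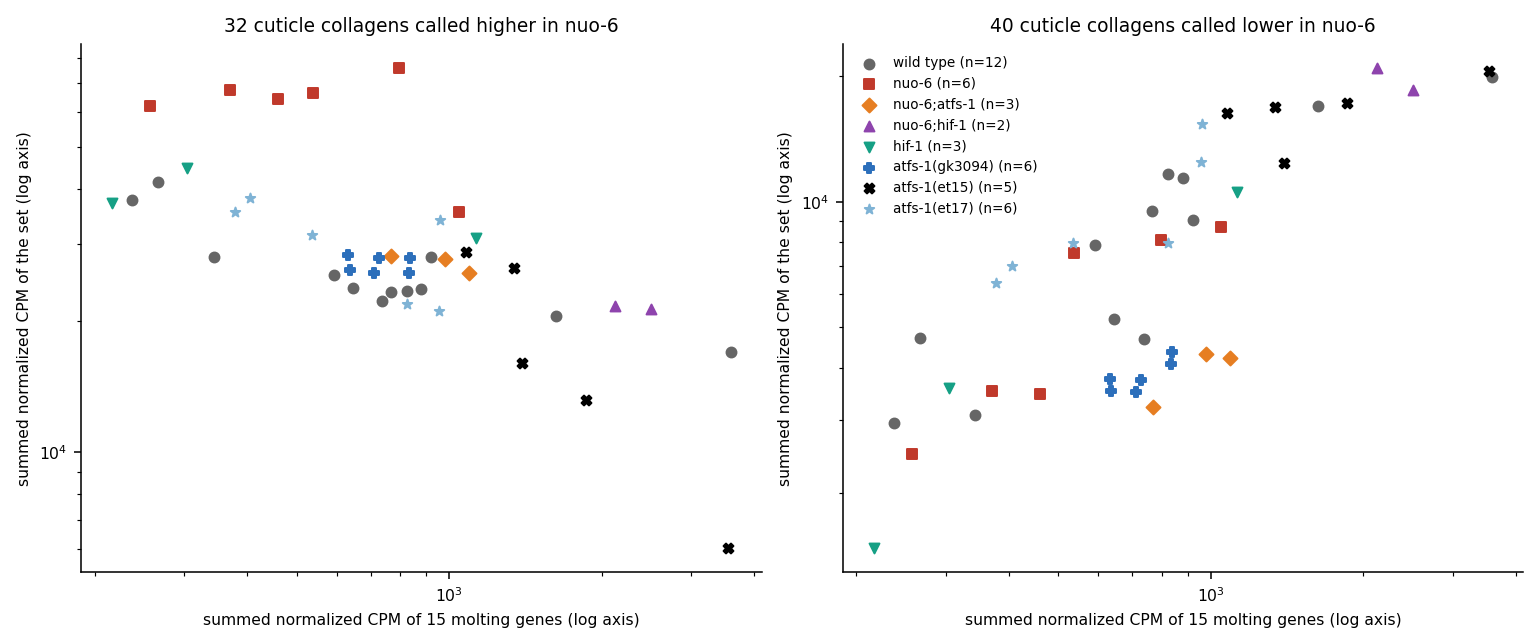
Summed normalized CPM of the 32 collagens called higher and of the 40 called lower in nuo-6 against the summed normalized CPM of 15 molting genes in the same library (both axes log), 1 point a library, colored by genotype. For the 40 the points tend to rise with the molting sum, but not along 1 line. The nuo-6;atfs-1 libraries lie at 3220 to 4312 for molting sums of 769 to 1093, while wild-type replicate 8 of batch 2 lies at 11674 for 824. The nuo-6 libraries lie at 35404 (replicate 2) to 75768 for the 32, a set called for being high in those libraries.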

How the data were processed

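RNA from whole prefertile young adults was sequenced in 43 libraries in 3 sequencing batches (Kapa stranded mRNA-seq kit, reads of 75 bases). The authors aligned reads to WBcel235 with STAR 2.5.2b and an Ensembl annotation and counted reads per gene with the counting mode of STAR; bcl2fastq 2.18, FastQC 0.11.5, edgeR 3.20.1 and R 3.4.1 are named in the submitters' processing notes. The strand column used for counting and the rule of the filter are not given in the sources used here. The authors left out 1 replicate each of nuo-6;hif-1 and atfs-1(et15) after a principal component analysis. The authors deposited CPM for 46739 genes and a filtered table of 13837 genes, whose values are taken as a signal, since each is the CPM of the library times a constant. Whole reads were recovered from the deposited CPM (100% of values within 0.01 of a whole number) and used in 1 alternative only. The replicates were RNA samples that the study describes as isolated independently. Whether this holds between the atfs-1(gk3094) libraries of batch 1 and their near-copies in batch 3 was not tested. In the main fit all of them counted as separate libraries.

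Groups were a genotype in a batch. All 43 libraries entered 1 fit with limma 3.58.1 (trend, empirical Bayes, R 4.3.3) on log2(normalized CPM + 0.5), with Benjamini-Hochberg adjustment over 13837 genes and calls at an adjusted p under 0.05. Fold changes on this scale understate the change of low genes. The study adjusted for batch as a term of its model, which was tried as an alternative here. The others were a pseudocount of 0.1 or 2, no filter, genes with a mean of at least 5 normalized CPM, scaling by library size alone, only the groups compared, a replicate block, a stage index as a covariate (the first principal component, in wild type, of 64 yolk, oocyte, sperm and molting genes, with 79.8% of their variance), edgeR 4.0.16 on recovered reads, each library left out, and, added after seeing the data, the batch 1 deletion libraries left out and the stage genes of nuo-6 without replicate 2. The fit was tested on simulated data. Python 3.11.15 with numpy 2.4.6, pandas 2.3.3 and matplotlib 3.10.9 made the summaries and plots. Positions are from Ensembl release 115 (WBcel235).

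Collagens named with values were the 3 largest rises and 3 largest falls of each comparison with wild type that were called, had a mean of at least 1 normalized CPM and did not overlap the wild type of the batch; the 5 with the highest wild-type level; those with a role in the literature; and the 5 widest in opposite directions. Neighbours, similar copies, collagens in the differences of effects, collagens called with the stage index, those called in no comparison and those below the filter were named after their values were seen. The members and lists were chosen with earlier results of these data known. At this depth 1 read is a small part of a CPM. Batch 3 numbers paired wild type and atfs-1(gk3094) libraries, whose deviations from the group means correlated at 0.693, 0.446 and 0.627, and the block left the count of calls there at 0. The correlation used in the block was 0.091.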

Additional observations from a re-analysis of the deposited data

Results flagged for a closer look

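In 16 groups of 4 to 10 libraries, 11.1% of those tested, 1 library lay far from the rest by Dixon's criterion, and chance alone flags about 1 in 20 such groups. Of these 16, 7 were nuo-6 replicate 2. It was the low library for 6 abundant collagens, with col-101 at 316.4, col-119 at 1744, col-140 at 3911, col-143 at 640.4, col-181 at 2145 and col-20 at 1926 normalized CPM, and the high one for the dauer collagen col-40, at 45.87. The other nuo-6 libraries apart were replicate 3 for col-10 (361.1) and replicate 5 for col-137 (89.37). Wild-type replicate 7 of batch 2 was high for col-128 (23.7), col-176 (42.88) and col-46 (16.24), replicate 5 for col-135 (32.02) and replicate 9 for col-40 (0.9503). atfs-1(et15) replicate 3 was high for col-176 (382.9) and atfs-1(et17) replicate 1 for col-46 (3.418).

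The effect of nuo-6 with atfs-1 deleted (against the deletion, batch 3) differed from its effect with atfs-1 present (against wild type, batch 2) for 12 collagens by limma. It was lower for col-98 (-2.33), col-103 (-2.23), col-42 (-2.11), col-142 (-2.05), col-124 (-1.58), col-96 (-1.34), col-160 (-1.28) and col-141 (-1.10) and higher for col-90 (1.92), col-54 (1.89), col-169 (1.71) and col-69 (1.57), on the log2 scale. Of all genes 9.34% were called in this test, and batch and genotype cannot be told apart in it.

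Of the 43 collagens below the filter, 14 were at 2 normalized CPM or more, and above all 12 wild-type libraries, in nuo-6 replicate 2, and 6 were so in nuo-6 replicate 3.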

How the results depend on the processing

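The counts of called collagens in nuo-6 (72), nuo-6;hif-1 (76) and atfs-1(et15) (82) stayed within 1.5 times of these values under every alternative except the stage index and single left-out libraries. With the stage index as a covariate the counts were 8 for atfs-1(et15), 10 for nuo-6;hif-1, 3 for atfs-1(et17), 23 for nuo-6;atfs-1, 59 for atfs-1(gk3094) in batch 1, 7 for nuo-6;atfs-1 against nuo-6 through wild type, 5 for nuo-6;atfs-1 against atfs-1(gk3094), 3 for atfs-1(et15) against atfs-1(et17) and 36 for wild type of batch 3 against batch 2. Over all genes the index gave 1543 higher and 923 lower for nuo-6;atfs-1, beside 1539 and 835 in the main fit. For atfs-1(gk3094) in batch 1 it gave 3971 and 2969 over all genes, beside 2494 and 1903. With only the groups compared they were 27 for nuo-6;atfs-1, 3 for atfs-1(gk3094) in batch 3, 2 for atfs-1(et17), 26 through wild type and 34 for nuo-6;atfs-1 against atfs-1(gk3094), and for atfs-1(et15) the split was 63 higher and 1 lower. With additive terms for genotype and batch they were 3 for atfs-1(gk3094) in either batch, 5 for atfs-1(et17) and 8 for nuo-6;atfs-1 against atfs-1(gk3094). Without a filter 5 were called for atfs-1(gk3094) in batch 1 and 9 through wild type. For atfs-1(et17) (1 called) a pseudocount of 0.1 gave 2 and a mean of at least 5 normalized CPM gave 0. For nuo-6;atfs-1 against atfs-1(gk3094) (1 called) a pseudocount of 2 gave 2, library size as the only scaling 3 and edgeR 2. The cause of these shifts was not tested. Library size as the only scaling moved the median of all genes by 0.12 for nuo-6;atfs-1, 0.11 for both activating alleles, 0.16 for nuo-6;atfs-1 against atfs-1(gk3094) and 0.20 through wild type, where the split became 14 higher and 5 lower.

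The replicate block gave 72 in nuo-6, 2 for atfs-1(et17) and 4 for nuo-6;atfs-1 against atfs-1(gk3094), and the other counts stayed within 1.5 times. Apart from atfs-1(gk3094) and wild type in batch 3, the numbers were not shown to pair libraries.

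Leaving out single libraries gave 59 to 80 called collagens in nuo-6, 5 to 8 in nuo-6;atfs-1, 3 to 27 in atfs-1(gk3094) of batch 1, 0 in that of batch 3 and in hif-1, 37 to 87 in atfs-1(et15), 1 to 20 in atfs-1(et17), 48 to 81 in nuo-6;hif-1 (where the lone library is assumed to vary like the other groups), 7 to 28 through wild type, 1 to 3 for nuo-6;atfs-1 against atfs-1(gk3094), 16 to 36 for atfs-1(et15) against atfs-1(et17) and 28 to 59 for wild type of batch 3 against batch 2.

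Of the log2 fold changes of named collagens under all alternatives, 4869 kept their direction and side of the threshold, 203 lost the call, 80 gained it and 28 changed sign, all with the stage index. In atfs-1(et15) these became 0.40 for col-101, -0.10 for col-120, 0.0095 for col-143, -0.10 for col-152, -0.27 for col-17, 0.048 for col-20, -0.24 for col-38, -0.10 for col-49, -0.10 for col-63, -0.58 for col-79 and -0.12 for col-88. In nuo-6;hif-1 they became 1.47 for col-101, 1.11 for col-119, -0.19 for col-128, 1.11 for col-140, -0.65 for col-152, -1.36 for col-17, -0.67 for col-174, 0.71 for col-181, 0.97 for col-20, -1.004 for col-38, -0.074 for col-46, -0.91 for col-49, -0.73 for col-63, -1.79 for col-79 and -0.23 for col-91. In atfs-1(gk3094) of batch 1 they became -0.88 for col-38 and -0.80 for col-49. Each group holds 2 to 6 libraries of pooled worms, and no split of the error between worms, libraries and depth was computed.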

Other observations

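The 43 cuticle collagens below the filter were close to silent in nearly all libraries. Summed, they came to 4.98 to 10.8 normalized CPM in the 12 wild-type libraries, and to 162.4 in nuo-6 replicate 2, 43.2 in nuo-6;hif-1 replicate 2 and 38.4 in nuo-6 replicate 3. In nuo-6 replicate 2 the highest were col-183, col-36, col-51 and the dauer collagen col-2, and in 17 of the 43 the highest of all libraries was that one. The remaining nuo-6 libraries summed to 9.08 to 14.3. nuo-6 replicate 2 and nuo-6;hif-1 replicate 2 were also the libraries with most col-40, at 45.9 and 18.2 normalized CPM beside at most 5.23 elsewhere. These genes entered no test.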
